A study of Danio rerio with 116 samples.

Results

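The mitochondrial genome CG positions are all cytosines of CG dinucleotides to which a bisulfite sequencing read of the mitochondrial chromosome gave a methylation call. They were taken by chromosome name alone, so no measured level entered their choice. There were 624 such positions, between positions 148 and 16518 of the mitochondrial sequence, of 3170751 CG positions with a call in all libraries together. They fell into 34 bins of 500 bp. Behind them stood 1077 reads and 3554 calls, which were 0.101% of all reads with a CG call and 0.0974% of all CG calls.

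The animals were zebrafish of the Tg(vasa:EGFP) line, vas:eGFP in the labels, in which the promoter of the germline gene vasa drives a green fluorescent protein. EGFP+ cells, named germinal stem cells in the labels, and EGFP-negative control cells were sorted at 14 ages from 1 to 70 days post-fertilisation (dpf), without any other treatment or allele in the labels. Libraries of EGFP+ and control cells at the 9 ages up to 28 dpf (1, 2, 4, 7 and 11 dpf, then 14, 21, 25 and 28 dpf) each pooled 10 fish. The sex of these fish is given as pooled. Libraries at 35, 40, 45, 50 and 70 dpf came from 1 female or 1 male each. Sex at 35 to 50 dpf was presumptive, read from the brightness of the gonad. Each group of cells, age and sex held 3 libraries, apart from 5 of EGFP+ cells at 28 dpf, which made 59 EGFP+ and 57 control libraries. Whole fish were dissociated up to 14 dpf and the dissected gonadal region after that, so the tissue behind the control cells changed at that age. All cells passed a strainer before sorting, which removed the largest oocytes. The CG calls hold no marker by which the identity of the sorted cells could be checked.

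Mitochondrial DNA is a small circular molecule, present in many copies per cell and inherited through the egg, that encodes subunits of the respiratory chain with their ribosomal and transfer RNAs. In animals the growing oocyte accumulates very large numbers of copies, and the embryo divides that supply among its cells before replication resumes. Nuclear DNA of vertebrates is methylated at most of its CG dinucleotides, while the extent of CG methylation on mitochondrial DNA is a matter of debate. In bisulfite sequencing an unmethylated cytosine reads as thymine, and a cytosine that stays unconverted for any reason reads as methylated.

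Depth set how finely single libraries could be read. Libraries held between 2610 and 49694 reads with a CG call, with a median of 6011 in EGFP+ libraries and 7050 in control libraries. The median number of mitochondrial reads was 9 in EGFP+ libraries and 4 in control libraries. A total of 7 libraries had no mitochondrial read, 1 of them EGFP+ and 6 of them control. The share that 3 reads would make ran from 0.0116% to 0.115% in EGFP+ libraries and from 0.00604% to 0.101% in control libraries, and 10 EGFP+ and 27 control libraries lay at or below it. No molecular identifiers marked the molecules, so all intervals cover counting error only.

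The first question was how much of a library the mitochondrial positions made up in germline and in other cells. The share of mitochondrial reads among all reads with a CG call had a median of 0.154% in EGFP+ libraries and 0.0423% in control libraries. Its mean was 0.196% ± 0.180 in EGFP+ libraries (SD, n = 59) and 0.0529% ± 0.0454 in control libraries (SD, n = 57). A total of 21 EGFP+ libraries lay above every control library, and 51 lay above the control median. In the other direction, 3 control libraries lay above the EGFP+ median. Per base of sequence between the first and last called position, mitochondrial reads were 132 times as dense as reads of chromosomes 1 to 25 in the median EGFP+ library and 35.4 times as dense in the median control library. Reads of the end of chromosome 4, from position 76000001 on, were left out of the nuclear reads there. More mitochondrial DNA per cell, less nuclear DNA per cell and a different mix of cells cannot be told apart in such a share.

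The highest shares belonged to single EGFP+ libraries of young fish. They were 0.910% in replicate B of EGFP+ cells at 21 dpf (47 of 5163 reads, 95% Wilson interval 0.685% to 1.21%), 0.763% in replicate B at 28 dpf (22 of 2884 reads) and 0.604% in replicate B at 1 dpf (21 of 3474 reads). The highest control libraries were replicate A at 1 dpf with 0.201%, replicate C at 4 dpf with 0.201% and replicate C at 11 dpf with 0.19%. The lowest EGFP+ libraries were replicate C of males at 35 dpf with 0 of 3528 reads, replicate A at 25 dpf with 0.0126% and replicate C of females at 40 dpf with 0.0292%. In the library with 0 of 3528 reads, 3 reads would make a share of 0.0850%, and the 95% Wilson interval reaches 0.109%. The lowest control libraries were the 6 with no mitochondrial read, at 7, 14, 25 and 70 dpf. The extremes of both kinds of cell thus rested on at most 47 mitochondrial reads.

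**Figure D1:**
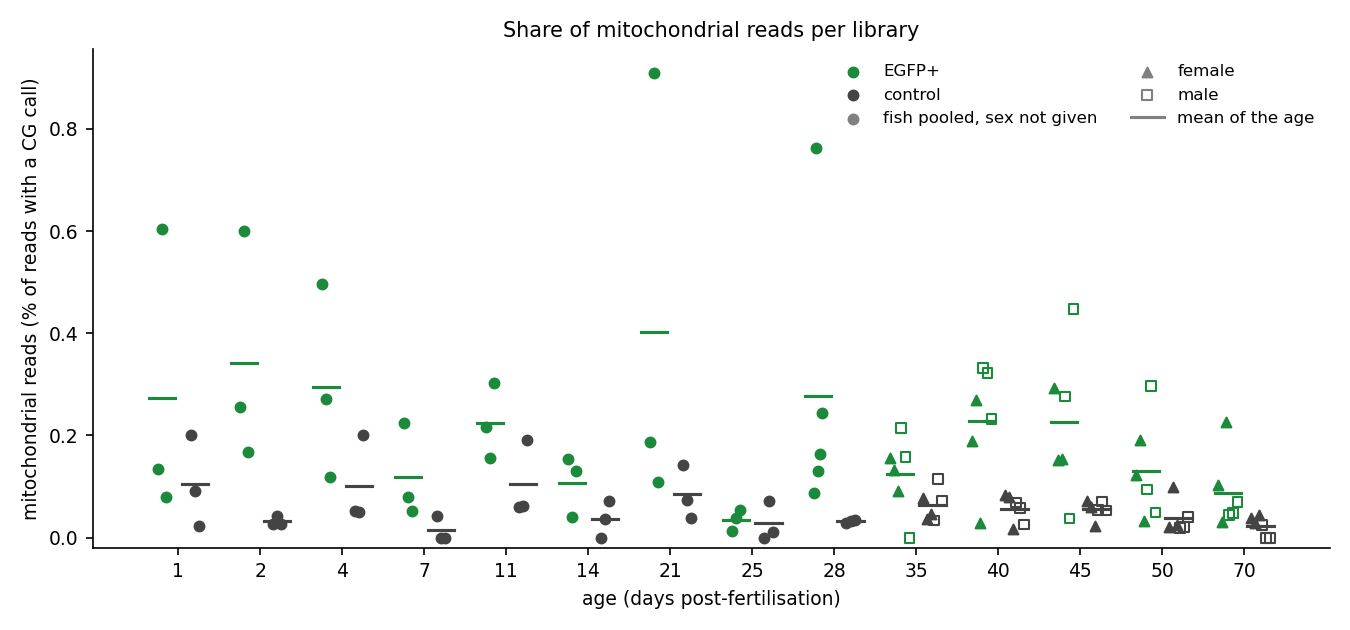
Mitochondrial reads in % of all reads with a CG call (vertical axis) for every library by age in days post-fertilisation (horizontal axis), EGFP+ in green to the left of control in grey, with circles for pooled fish, triangles for females, open squares for males and a line for the mean of each age. The EGFP+ libraries reach 0.910% and the control libraries 0.201%.

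Up to 28 dpf the mitochondrial share was higher in EGFP+ cells at each of the 9 ages. The 29 EGFP+ libraries had a lowest share of 0.0126%, a median of 0.155% and a highest of 0.910%, against 0%, 0.0423% and 0.201% in the 27 control libraries. The ranges overlapped, since the lower EGFP+ libraries lay among the control libraries. Taken as log2 of the share with 0.5 reads added and averaged over the ages, the difference was 1.79 (SE 0.29), which is 3.46-fold. In a two-sided permutation test with cells exchanged within each age, p was 1e-05, the smallest that 100000 permutations can give, and 0.00013 after Benjamini-Hochberg adjustment over 13 comparisons of the share. With only the 23 EGFP+ and 24 control libraries that shared both age and sequencing run with the other kind of cell, the difference was 1.80 (permutation p = 2e-05).

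Between 35 and 50 dpf the share was also higher in EGFP+ cells of both sexes. In females the lowest, median and highest shares were 0.0292%, 0.153% and 0.292% in 12 EGFP+ libraries, against 0.0166%, 0.0523% and 0.0999% in 12 control libraries. The log2 difference was 1.32 (SE 0.38), or 2.5-fold, higher at 4 of 4 ages (exact permutation test, p = 0.00234, adjusted p = 0.0152), and 1.35 within sequencing runs (8 EGFP+ and 11 control libraries, exact permutation p = 0.00406). In males the lowest, median and highest shares were 0%, 0.223% and 0.448% in 12 EGFP+ libraries, against 0.0184%, 0.0536% and 0.115% in 12 control libraries. The log2 difference was 1.53 (SE 0.48), or 2.88-fold, again higher at 4 of 4 ages (exact permutation test, p = 0.00629, adjusted p = 0.0272). Within sequencing runs it was 2.05 (8 EGFP+ and 12 control libraries, exact permutation p = 0.000125), and without the replicates A it was 1.15 (exact permutation p = 0.148), so the call in males did not hold without them.

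At 70 dpf, when the fish were adult, the share was again higher in EGFP+ cells. The 3 female EGFP+ libraries held 0.103%, 0.0305% and 0.226% mitochondrial reads, against 0.0384%, 0.0277% and 0.0449% in the 3 female control libraries. The 3 male EGFP+ libraries held 0.0441%, 0.0484% and 0.070%, against 0.0242%, 0% and 0% in the 3 male control libraries. The males did not overlap, but in the male controls without a mitochondrial read 3 reads would make 0.0902% and 0.0621%. In females 1 EGFP+ library lay among the controls. Over both sexes the log2 difference was 1.54 (SE 0.47), or 2.90-fold (exact permutation test, n = 6 each, p = 0.015, adjusted p = 0.0488). Without the libraries of 1 replicate letter the difference was 1.04 to 1.80, and the 36 arrangements then left cannot give an exact p below 0.0556. In the 5 EGFP+ and 4 control libraries with at least 5000 reads the difference was 0.79 (exact permutation p = 0.1). Within sequencing runs it was 1.36 (6 EGFP+ and 5 control libraries, exact permutation p = 0.025).

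Seen age by age and sex by sex, the mean log2 share of EGFP+ cells was above that of control cells in 19 of 19 strata. Every EGFP+ library lay above every control library in 8 of the 19 strata, or 42.1%, namely at 2, 7 and 28 dpf, in females of 35 and 45 dpf and in males of 40, 50 and 70 dpf. At 7 dpf and in males of 70 dpf some control libraries had no mitochondrial read. In these, 3 reads would make 0.0617% and 0.0766% at 7 dpf and 0.0621% and 0.0902% in the males. The lowest EGFP+ libraries there held 0.0515% and 0.0441%, so these separations are not resolved at this depth. In females of 35 dpf the lowest EGFP+ library held 3 of 3316 reads (0.0905%) and the highest control library 8 of 10432 (0.0767%). In males of 50 dpf they held 6 of 12186 (0.0492%) and 10 of 24584 (0.0407%). In both strata the Wilson interval of the lowest EGFP+ library overlapped that of a control library. The same held at 28 dpf, in females of 45 dpf and in males of 40 dpf. These separations are not fully resolved either. The largest difference was at 2 dpf, where the EGFP+ libraries held 0.256%, 0.601% and 0.168% and the control libraries 0.0273%, 0.0423% and 0.0264%, a 9.08-fold difference on the log2 scale with 0.5 reads added. At 28 dpf the 5 EGFP+ libraries held 0.0876%, 0.763%, 0.130%, 0.163% and 0.244%, and the 3 control libraries 0.0278%, 0.0327% and 0.0346%, a 5.20-fold difference (exact permutation test, p = 0.0357). The smallest differences were 1.11-fold in males at 35 dpf and 1.54-fold at 25 dpf. In these males the EGFP+ libraries held 0.214%, 0.157% and 0%, and the control libraries 0.0335%, 0.115% and 0.0727%, so that the EGFP+ library without a mitochondrial read stood below all 3 controls while the other two stood above them. At 25 dpf the EGFP+ libraries held only 0.0126%, 0.0388% and 0.0546%, the lowest mean of any EGFP+ group. These shares stood on 2, 3 and 3 mitochondrial reads, each at or below the share that 3 reads would make. With 3 libraries against 3 no single stratum could reach an exact p below 0.1.

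**Figure D2:**
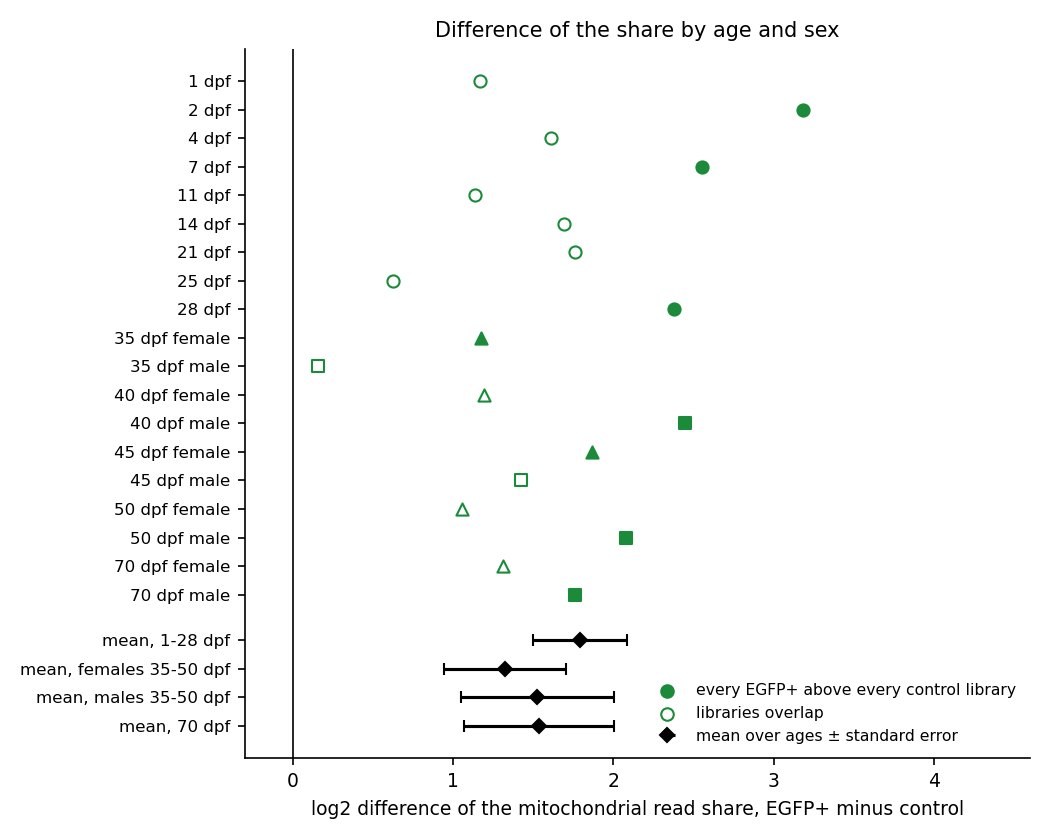
Log2 difference of the mitochondrial read share, EGFP+ minus control (horizontal axis), in each of the 19 strata of age and sex, with filled symbols where every EGFP+ library lay above every control library, circles for pooled fish, triangles for females and squares for males. Diamonds with bars give the mean over ages with its standard error for the 4 comparisons, which run between 1.32 and 1.79, and every stratum lies to the right of 0.

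Reads on unplaced scaffolds were set against the same denominator to see whether other small parts of the assembly moved in the same way. Their share differed between EGFP+ and control cells by log2 differences of -0.01 at 1 to 28 dpf (permutation p = 0.816), 0.04 in females and -0.07 in males at 35 to 50 dpf (exact permutation p = 0.620 and p = 0.290) and 0.06 at 70 dpf (exact permutation p = 0.47). Copies of a read, taken as reads of a library with the same call positions, made up 3.71% of mitochondrial reads. They made up 0.454% of reads of chromosomes 1 to 25 without the end of chromosome 4. Reads of separate molecules can also match in this way, more readily at the higher read density of mitochondrial DNA. Counting reads with the same call positions once gave log2 differences of 1.76, 1.35, 1.49 and 1.51 in the 4 comparisons of EGFP+ with control cells, in the order given above. The number of calls per read was alike, with 3.30 on mitochondrial reads and 3.33 on these reads of chromosomes 1 to 25, again without the end of chromosome 4.

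The next question was whether the share followed the sex of the fish or its age within each kind of cell. In EGFP+ cells at 35 to 50 dpf the mean share was 0.151% ± 0.0802 in females and 0.205% ± 0.139 in males (SD, n = 12 each), a log2 difference of -0.13 (SE 0.54, exact permutation p = 0.801). In control cells it was 0.0531% ± 0.0289 in females and 0.0525% ± 0.0275 in males (SD, n = 12 each), a log2 difference of 0.07 (SE 0.29, exact permutation p = 0.815). The log2 difference between EGFP+ and control cells in females minus that in males was -0.20 (20000 permutations of sex, p = 0.734). At 70 dpf females were higher than males by 0.80 in EGFP+ cells (exact permutation p = 0.4) and by 1.25 in control cells (exact permutation p = 0.2), where 3 libraries against 3 cannot give a p below 0.1. None of these differences passed 0.05. All 3 control females of 70 dpf, at 0.0277% to 0.0449%, lay above all 3 control males, at 0% to 0.0242%. Those males held only 2, 0 and 0 mitochondrial reads. In the libraries without a read, 3 reads would make 0.0902% and 0.0621%, above each of these females, so the order is not resolved at this depth.

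With age, the EGFP+ libraries of 7 to 14 dpf held a mean share of 0.150% ± 0.0869 and those of 1 to 4 dpf 0.303% ± 0.209 (SD, n = 9 each). The log2 difference, later minus earlier, was -0.87 (SE 0.45, exact permutation p = 0.0737, adjusted p = 0.192). It was -1.11 when calls were counted in place of reads (exact permutation p = 0.0499) and -1.39 without the replicates C (exact permutation p = 0.0195), but -0.0872 without the replicates B (exact permutation p = 0.857) and -1.06 within sequencing runs (exact permutation p = 0.143). Control libraries held 0.0515% ± 0.0592 at 7 to 14 dpf and 0.0795% ± 0.0719 at 1 to 4 dpf (SD, n = 9 each), a log2 difference of -0.68 (SE 0.63, exact permutation p = 0.290). At 21 to 28 dpf against 7 to 14 dpf the log2 difference was 0.02 in EGFP+ cells (SE 0.60, exact permutation p = 0.979) and 0.09 in control cells (SE 0.64, exact permutation p = 0.890). The EGFP+ libraries of 21 to 28 dpf spread the most, with a mean of 0.246% ± 0.302 (SD, n = 11).

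Ordered by their mean share, the EGFP+ groups ran from 0.402% ± 0.442 at 21 dpf, 0.342% ± 0.229 at 2 dpf and 0.296% ± 0.19 at 4 dpf down to 0.0541% ± 0.0139 in males at 70 dpf and 0.0353% ± 0.0212 at 25 dpf (SD, n = 3 each). Each EGFP+ library of 25 dpf lay at or below the share of 3 reads. Males of 40 dpf, with 0.296% ± 0.0545 (SD, n = 3), were the group with a high mean and a small spread. Neighbours in this order differed by less than the larger of their 2 SDs. The control groups ran from 0.105% ± 0.0899 at 1 dpf down to 0.00807% ± 0.0140 in males at 70 dpf (SD, n = 3 each), where 2 of 3 libraries had no mitochondrial read.

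The third question was the relation of the share to the methylation of the library on chromosomes 1 to 25, taken as the unweighted mean over windows of 10 Mb. In EGFP+ libraries this nuclear methylation ran from 75.1% to 86.2%, and the log2 share was higher where it was higher. Pearson's r was 0.545 and Spearman's rho 0.557 over 59 libraries (permutation p = 2e-05 for each, adjusted p = 0.00012 over 6 correlations). Without the 2 libraries farthest from the median, replicate B at 1 dpf and replicate A of males at 35 dpf, r was 0.524. When the mean of each group of cells, age and sex was taken off both measures, r was 0.566 (permutation p = 1e-05), and with the means of the sequencing runs taken off it was 0.513 (permutation p = 4e-05). In each correlation with means taken off, the deviations were exchanged over all its libraries and not within groups or runs, so its p-value may be too small. With group means taken off, the relation was also present between libraries of the same age and sex.

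Examples within groups show the size of it. At 28 dpf replicate B combined the highest share of its group, 0.763%, with the highest nuclear methylation, 80.1%, while replicate C had 0.130% and 76.4%. In males at 35 dpf replicate A had 0.214% and 86.2%, and replicate C, without a mitochondrial read, had 75.1%, the lowest of all EGFP+ libraries. In males at 45 dpf replicate B had 0.0373% and 76.7%, and replicate C had 0.448% and 80.4%. Females at 40 dpf went the other way, with 0.269% and 75.6% in replicate B and 0.0292% and 81.0% in replicate C.

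Within single sequencing runs of EGFP+ libraries the relation was uneven. Pearson's r was 0.846 in run 92 (n = 10, permutation p = 0.0015), 0.795 in run 104 (n = 7, permutation p = 0.0362), 0.538 in run 96 (n = 11, permutation p = 0.0862), 0.268 in run 112 (n = 16, permutation p = 0.317) and 0.150 in run 157 (n = 11, permutation p = 0.653). It was positive in these 5 runs and passed 0.05 in 2 of them. Depth moved with the share too: the log2 number of reads had r = -0.287 with the share in EGFP+ libraries (permutation p = 0.0270, rho = -0.320 with p = 0.0138, r = -0.310 without the 2 farthest libraries) and r = -0.192 with nuclear methylation (permutation p = 0.145, rho = -0.174 with p = 0.189, r = -0.239 without the 2 farthest), and its part in the relation was not tested.

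In control libraries, where nuclear methylation ran from 72.9% to 82.4%, no such relation was detected. Pearson's r was 0.0462 (permutation p = 0.733) and rho was -0.0767 (permutation p = 0.571) over 57 libraries, and r was -0.0263 without the 2 farthest libraries, both at 1 dpf. With group means taken off r was -0.0628, and with run means taken off 0.204 (permutation p = 0.127). Within run 112 it was 0.00258 (n = 24, permutation p = 0.990), within run 96 0.312 (n = 12, permutation p = 0.320) and within run 157 0.696 (n = 6, permutation p = 0.112). The difference between the 2 correlations, EGFP+ minus control, was 0.628 after group means were taken off (20000 permutations of cells, p = 0.0005) and 0.308 after run means were taken off (permutation p = 0.0392), a test added after seeing the data. The share was counted less well in control libraries, with a median of 4 mitochondrial reads against 9 in EGFP+ libraries. At or below the share of 3 reads lay 27 control and 10 EGFP+ libraries. The part of these low counts in the difference was not tested.

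**Figure D3:**
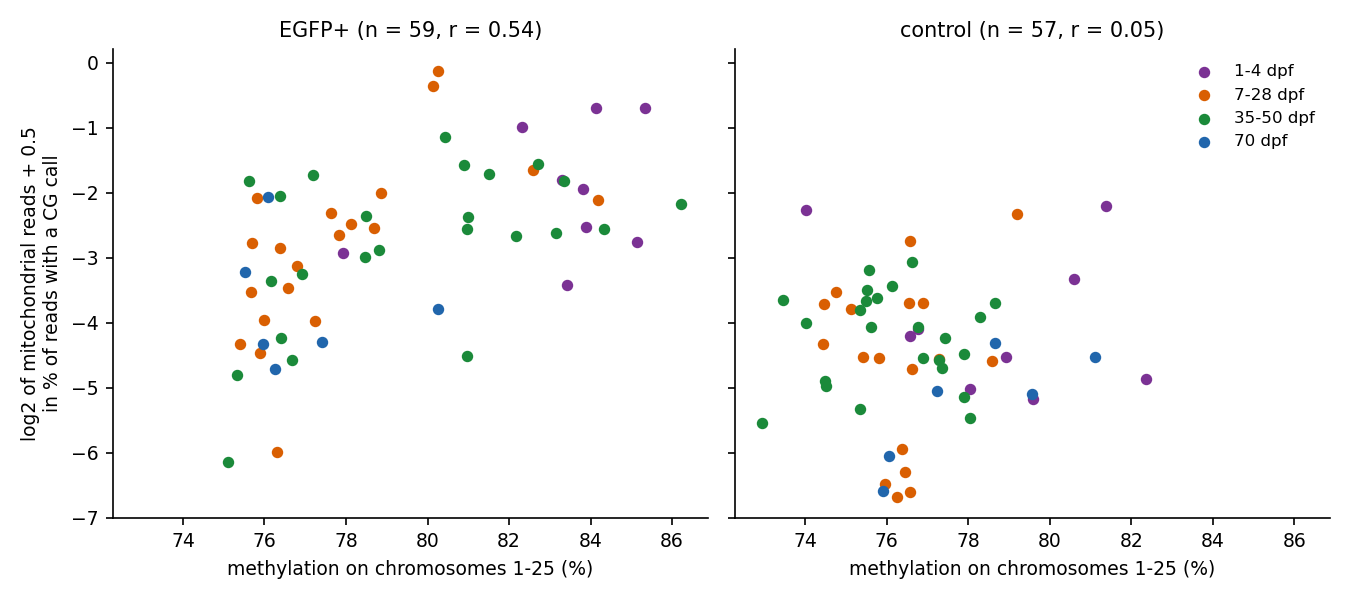
Log2 of the mitochondrial reads with 0.5 added, in % of reads with a CG call (vertical axis), against CG methylation on chromosomes 1 to 25 in % (horizontal axis), 1 point per library coloured by age, with EGFP+ on the left and control on the right. The share is higher at higher nuclear methylation in EGFP+ libraries (r = 0.545, n = 59). No such relation was detected in control libraries (r = 0.0462, n = 57), which held fewer mitochondrial reads.

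The end of chromosome 4, from position 76000001 on, was taken to hold the ribosomal DNA that the study followed in germline cells. The paper places that DNA at the tip of chromosome 4, at GRCz11 positions beyond the highest called one, 76624474. Its place among the deposited positions was not located. The share of reads at this end reached 26.6% in EGFP+ libraries of 28 to 50 dpf. Among the 29 EGFP+ libraries of 28 to 50 dpf the share of that region and the mitochondrial share had r = 0.249 (permutation p = 0.194) and rho = 0.227 (permutation p = 0.236), and r = 0.369 without the 2 farthest libraries (permutation p = 0.0552). Both relations with depth and this one were computed outside the 6 adjusted correlations.

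The mitochondrial positions were far less methylated than the nuclear ones. Of the 3554 mitochondrial calls 307 were methylated, or 8.64% (95% Wilson interval 7.76% to 9.61%). This interval treats all calls as independent, which calls of 1 read or 1 library are not, so it is narrower than the true error. The pooled level was 8.70% of 2643 calls in EGFP+ libraries and 8.45% of 911 calls in control libraries. In the 85 libraries with at least 10 mitochondrial calls, the mitochondrial level had a median of 5.63% and a mean of 8.99% ± 11, against a mean of 78.6% ± 3.09 on chromosomes 1 to 25 (SD, n = 85). It was lower than the nuclear level in 85 of 85 libraries, with a mean difference of -69.6 percentage points and differences of -84.3 to -34.4 points in single libraries (sign permutation test, p = 1e-05, the smallest that 100000 permutations can give). In 29 of these libraries no mitochondrial call was methylated.

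Among the libraries with most calls the level ranged widely. In EGFP+ cells 31 of 165 calls were methylated in replicate B at 21 dpf (18.8%, 95% Wilson interval 13.6% to 25.4%), against 2 of 178 in replicate A at 2 dpf (1.12%, 0.309% to 4.00%) and 1 of 146 in replicate C of males at 45 dpf (0.685%, 0.121% to 3.78%). Calls of 1 read are not independent, so these intervals are narrower than the true error. The highest levels were 46.7% in replicate A of control females at 70 dpf (7 of 15 calls) and 46.2% in replicate C of EGFP+ cells at 1 dpf (6 of 13 calls). The 5 libraries with most methylated calls held 30.3% of all methylated mitochondrial calls and 13.6% of all mitochondrial calls.

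The pooled level differed between sequencing runs, which was not tested. Pooled over EGFP+ libraries it was 16.6% of 580 calls in run 92 and 2.46% of 528 calls in run 104, with 5.0% of 800 calls in run 112, 9.63% of 301 calls in run 96 and 10.9% of 366 calls in run 157. In control libraries it was 18.0% of 122 calls in run 92 and 3.81% of 105 calls in run 104. Runs held partly different ages, run 92 those of 1 to 28 dpf and run 104 those of 2, 45 and 50 dpf. The CG calls themselves give no measure of bisulfite conversion. The paper gives a lower bound of conversion over all libraries, taken from cytosines outside CG. Its supplementary data also list calls at such cytosines for germline and control cells. Neither was set against these levels. The part of conversion in them was not tested.

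Between cells and sexes no difference in mitochondrial methylation passed adjustment. At 1 to 28 dpf the mean level was 13.5% ± 12.4 in 24 EGFP+ libraries and 7.19% ± 9.38 in 16 control libraries, and the difference averaged over the 8 ages with both kinds of cell, which left 24 EGFP+ and 15 control libraries, was 6.69 points (permutation p = 0.0445, adjusted p = 0.178 over 4 comparisons). It was 3.92 points within sequencing runs (exact permutation p = 0.182) and turned to -0.17 points with every library of at least 1 call and to -2.20 points with libraries of at least 20 calls, so its direction depended on the minimum. At 35 to 70 dpf the mean level was 6.62% ± 7.01 in 27 EGFP+ libraries and 8.16% ± 14.1 in 18 control libraries, and over the strata with both, which left 24 and 18 libraries, the difference was -2.5 points (permutation p = 0.471). In EGFP+ cells it was 4.49% ± 5.43 in females and 8.59% ± 7.88 in males (13 and 14 libraries), a difference averaged over ages of -4.15 points (SE 1.98, permutation p = 0.141). In control cells it was 6.56% ± 15.3 in females and 9.75% ± 13.4 in males (9 libraries each), and -10.3 points over the 4 ages that held both sexes, which left 6 and 9 libraries (exact permutation p = 0.167). The SDs were as large as the levels.

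No relation of mitochondrial methylation to the share was detected in either kind of cell. Pearson's r was -0.102 in 51 EGFP+ libraries (permutation p = 0.477, rho = -0.107) and 0.205 in 34 control libraries (permutation p = 0.246, rho = 0.134). With the nuclear methylation of the library it had r = 0.20 in EGFP+ libraries (permutation p = 0.158, rho = 0.120) and r = 0.359 in control libraries (permutation p = 0.0367, adjusted p = 0.110, rho = 0.185). Without the 2 control libraries farthest from the median, replicate A of females at 70 dpf and replicate A at 1 dpf, r was 0.0875. With group means taken off it was 0.368 (permutation p = 0.0316, rho = 0.359) and with run means taken off 0.394 (permutation p = 0.0212, rho = 0.348).

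Methylated calls were gathered in few reads. Among mitochondrial reads with at least 3 calls, 572 of 677 had no methylated call (84.5%, 95% Wilson interval 81.6% to 87.0%), 85 had some (12.6%) and 20 had only methylated calls (2.95%). On chromosomes 1 to 25 without the end of chromosome 4 the shares were 9.27% without a methylated call, 35.2% mixed and 55.5% fully methylated. The 20 fully methylated mitochondrial reads came from 19 libraries and held 79 of the 307 methylated calls, or 25.7%. Without them the pooled level was 6.56%. By kind of cell, 3.44% of 494 EGFP+ reads and 1.64% of 183 control reads were fully methylated, with 95% Wilson intervals of 2.16% to 5.44% in EGFP+ and 0.559% to 4.71% in control libraries that overlap. At least 1 methylated call was found in 140 of the 1077 mitochondrial reads, or 13.0%.

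**Figure D4:**
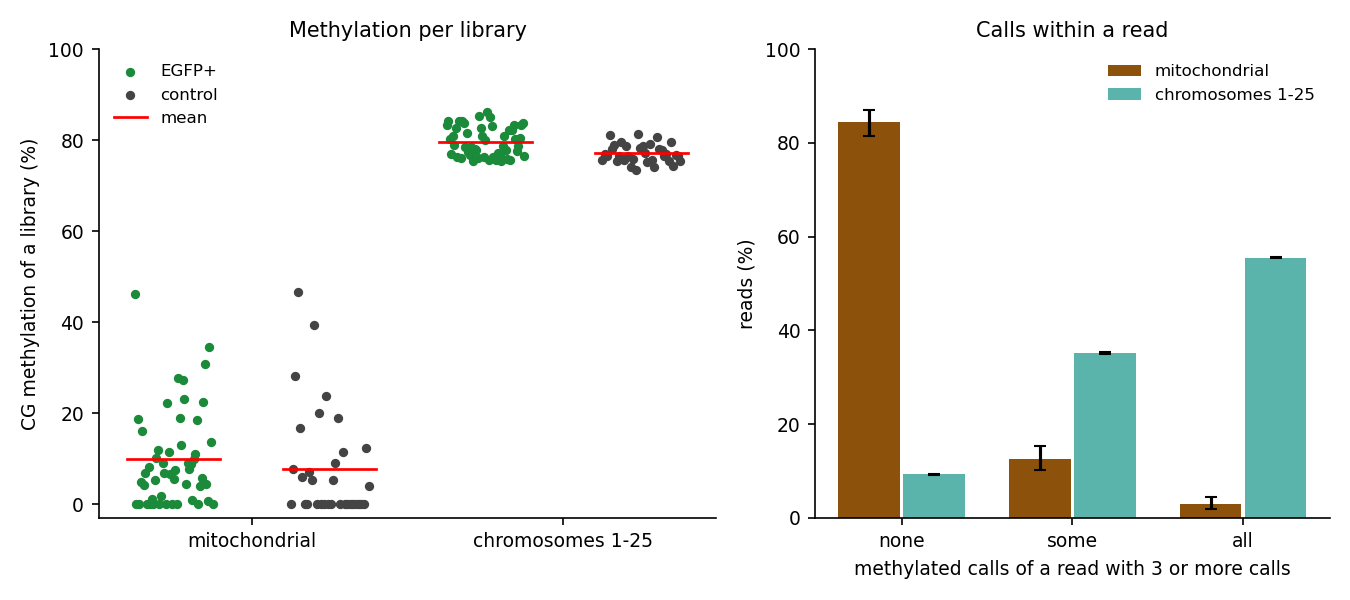
On the left, CG methylation in % (vertical axis) of the mitochondrial positions and of chromosomes 1 to 25 in each of the 85 libraries with at least 10 mitochondrial calls, EGFP+ in green and control in grey, with red lines for means. On the right, the % of reads with 3 or more calls in which none, some or all calls were methylated, with 95% Wilson intervals, where 84.5% of mitochondrial reads and 9.27% of reads of chromosomes 1 to 25 had none. The nuclear reads on the right leave out the end of chromosome 4.

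Along the molecule the calls were spread unevenly, and the profiles of both kinds of cell were correlated. A bin held between 1 and 266 calls. Over the 34 bins the percentage of a kind of cell's mitochondrial calls that fell in a bin had r = 0.837 and rho = 0.834 between EGFP+ and control libraries. The number of CG positions called in a bin and its number of calls had r = 0.757. Both are descriptions across bins that share the same libraries. Positions counted are those that received a call, and a CG called on both strands counts once for each strand. The number of positions thus depends on the calls themselves. The CG positions of a bin are the same for both kinds of cell, so a correlation of the profiles is partly built in. Calls per position were not compared between the kinds of cell. Per CG position called, most calls fell in the bins at positions 16001 to 16500 (11.3 calls per position), 13501 to 14000 (11.1) and 14501 to 15000 (11.1). Fewest fell in those at 16501 to 17000 (1 call at 1 position), 10501 to 11000 (1.94) and 1 to 500 (2.09). Which genes these bins lie in is not given, since the annotation at hand is of another assembly.

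In the test of each bin's share of a library's mitochondrial calls, 0 of 34 bins, or 0.0%, differed between EGFP+ and control libraries (permutation test within age and sex, 81 libraries, lowest adjusted p = 0.729). At an unadjusted p below 0.05 there were 2 bins. The test compared library shares, averaged over strata, and not pooled calls. In the bin at 2001 to 2500 that difference was 3.35 points (permutation p = 0.0258), with 4.54% of pooled EGFP+ and 2.20% of pooled control calls. In the bin at 4501 to 5000 it was 4.11 points (permutation p = 0.0459), with 4.88% of pooled EGFP+ and 2.63% of pooled control calls. Methylation was tested in the 5 bins with at least 50 calls in each kind of cell, and 0 of 5, or 0.0%, differed (permutation test, lowest adjusted p = 0.635, and none at an unadjusted p below 0.05).

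By level, the 17 bins with at least 100 calls ran from 2.76% methylated at positions 8501 to 9000 (4 of 145 calls) to 18.1% at positions 5501 to 6000 (31 of 171 calls). In the bin at 5501 to 6000, 24.1% of 108 EGFP+ calls and 7.94% of 63 control calls were methylated (permutation p = 0.127, adjusted p = 0.635). A total of 6 bins with 195 calls together had no methylated call. No single position stood on enough calls to be compared: the median position had 4 calls, the deepest 25, and 440 of 624 positions had no methylated call. Of the 43 positions with at least 15 calls, 8 had none methylated and the highest, position 14142, named here after its value was seen, had 4 of 15 (26.7%). In all, 593 positions were called in EGFP+ libraries, 421 in control libraries and 390 in both.

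**Figure D5:**
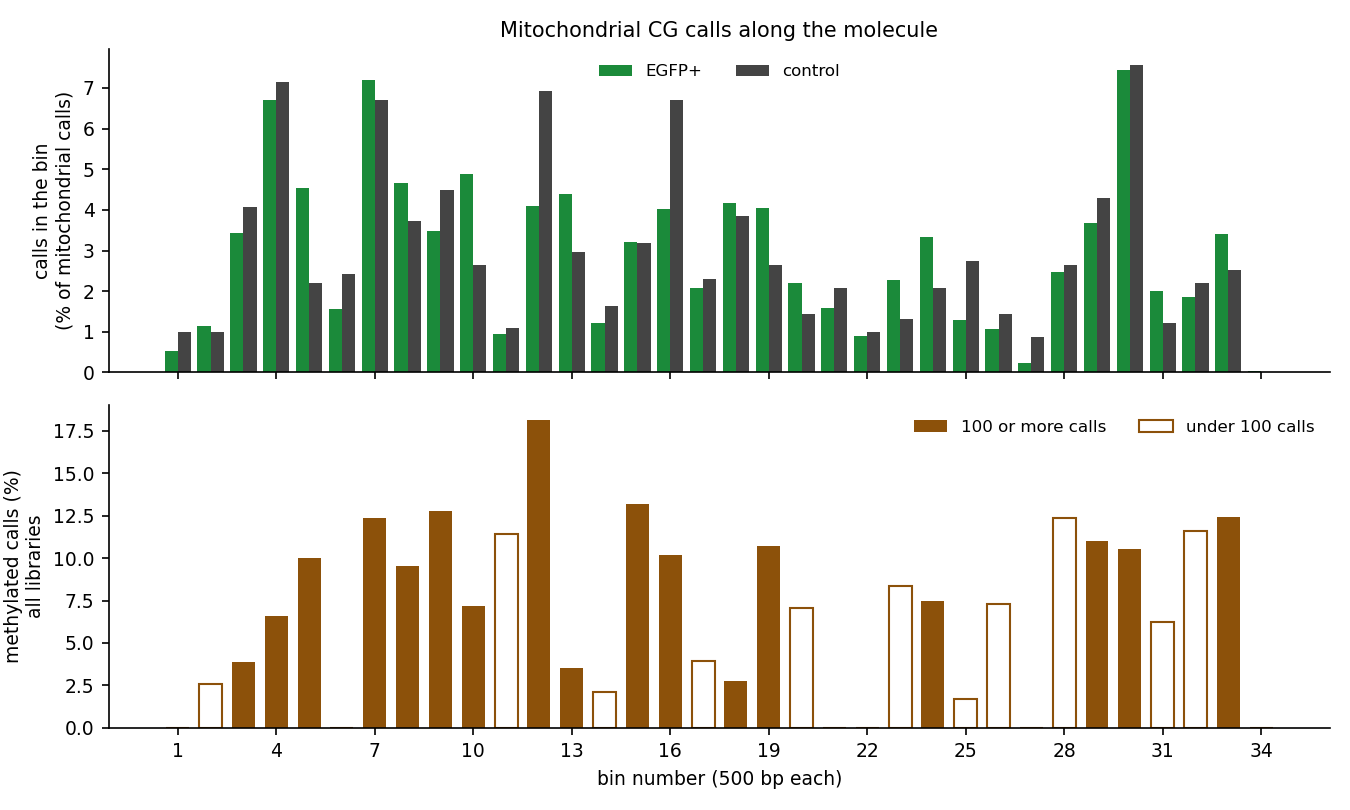
The upper panel gives the % of mitochondrial calls that fell in each of the 34 bins of 500 bp (horizontal axis, bin number), EGFP+ in green to the left of control in grey, and the lower panel the % of calls that were methylated over all libraries, open where a bin held under 100 calls. The profiles of both kinds of cell are correlated (r = 0.837 across bins, which hold the same CG positions for both), and among bins with at least 100 calls methylation runs from 2.76% to 18.1%.

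The reads came unequally from the strands of the molecule. The files do not give the strand, so it was inferred from calls at adjacent positions, which are the cytosines of the top and the bottom strand of 1 CG, and passed on through reads that share positions, a step chosen after seeing the data. It placed 855 of the 1077 mitochondrial reads, and 97.1% of 454 pieces of evidence pointed to the strand assigned. The same evidence had set that strand, so a high percentage is built in. It is no separate check of the placing, whose accuracy was not tested. Of the placed reads 80.6% came from the bottom strand of the reference, with 80.0% of 630 in EGFP+ and 82.2% of 225 in control libraries. At the end of chromosome 4, placed in the same way, 50.3% of 6124 reads came from the bottom strand. Copies of a read were left out there, but not among the mitochondrial reads. There only 85.9% of the evidence pointed to the strand assigned, counted in the same way. More than 50% of the placed mitochondrial reads came from the bottom strand in 36 of 40 EGFP+ and 18 of 20 control libraries with at least 5 such reads. Methylation was 8.39% of 2288 calls on the bottom strand and 6.54% of 596 calls on the top strand.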

How the data were processed

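Cells were sorted by EGFP, their DNA was bisulfite-treated and amplified by random-primed post-bisulfite adaptor tagging, and sequenced at low coverage. The authors trimmed reads with Trim Galore, mapped them with Bismark 0.19.0 in its PBAT mode and deposited 1 file per library with 1 line per CG call (read, chromosome, position, methylated or not). The processing notes name GRCz10 and the methods GRCz11. The highest called position on chromosome 4 is 76624474, lower than the amplified region that the paper gives on GRCz11. Positions are given as deposited. All other values were computed from these calls, with Python 3.11.15, numpy 2.4.6, pandas 2.3.3, scipy 1.17.1 and matplotlib 3.10.9. Shares are mitochondrial reads over all reads with a CG call, tested as log2 with 0.5 reads added, so a difference that involves a library without a mitochondrial read depends on that addition. Methylation is the percentage of methylated calls in libraries with at least 10 mitochondrial calls. Cells or sexes were exchanged within age and sex (all arrangements, or 100000 permutations, two-sided). The difference of the EGFP+ effect between sexes and that between correlations used 20000 permutations. The p-values were Benjamini-Hochberg adjusted over 13 share, 4 methylation and 6 correlation tests, and over bins. Groups came from the labels. The title's 11 dpf was used for 6 libraries whose day field differs. Sequencing runs, 8 in all, were read from read names. The 2 libraries with reads of more than 1 run were given their commonest run. Differences within runs are means over strata split by run, weighted by their numbers of libraries, unlike the unweighted main differences. The labels do not say whether replicate letters mark shared fish. The bin and group tests were tested on simulated libraries with large set changes and calls drawn independently. Smaller changes, and calls that cluster within reads, were not simulated, so this does not show what the bin tests could miss. Bins named are the 3 with most and the 3 with fewest calls per position, and libraries named as extremes the 3 highest and lowest shares of each kind of cell. Members, lists and tests were chosen with earlier results of these data known. Alternatives were 1 read added, no log, calls for reads, other denominators, copies counted once, other minimums, bins of 1000 bp, runs, the replicate block and each replicate left out.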

Additional observations from a re-analysis of the deposited data

Results flagged for a closer look

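Groups of 4 to 10 libraries were searched for a library far from the others, which only EGFP+ cells at 28 dpf allowed (n = 5, 4 measures). Chance alone would single out about 1 in 20 for each measure. Replicate B had a mitochondrial share of 0.763%, the highest of the 5, and its gap to the next library was 0.768 of the range of the group. It was not singled out on the log2 scale used for the tests of the share, which was among the 4 measures. Without the replicates B of all ages the EGFP+ difference between 21 to 28 dpf and 7 to 14 dpf was -0.76 (exact permutation p = 0.240), against 0.02 with them. The correlation of the share with nuclear methylation differed between the kinds of cell, with r = 0.566 in EGFP+ and r = -0.0628 in control libraries after group means were taken off, a difference of 0.628 (20000 permutations, p = 0.0005). With run means taken off instead, r was 0.513 in EGFP+ and 0.204 in control libraries, a difference of 0.308 (20000 permutations, permutation p = 0.0392), an alternative added after seeing the data. Control libraries held fewer mitochondrial reads, and the part of this in the difference was not tested.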

How the results depend on the processing

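The higher share in EGFP+ than in control cells kept its direction in all 58 alternatives run over its 4 comparisons. At 1 to 28 dpf and in females of 35 to 50 dpf it also stayed past 0.05, with ranges of 1.63 to 1.96 and 1.23 to 1.43 when each replicate was left out. In males it ran from 1.15 to 1.86 with a replicate left out (exact permutation p up to 0.148, without the replicates A), and at 70 dpf from 1.04 to 1.80 (exact permutation p of 0.0556 to 0.111, where no p below 0.0556 was possible) and was 0.79 (p = 0.1) in libraries of at least 5000 reads, an alternative chosen after seeing the data. The EGFP+ difference between 7 to 14 and 1 to 4 dpf was -1.11 with calls for reads (exact permutation p = 0.0499) and ran from -1.39 to -0.0872 (without the replicates B) with a replicate left out. Comparisons that passed no threshold changed sign as follows. Females against males in control cells at 35 to 50 dpf ran from -0.17 to 0.43 with a replicate left out, and the difference of the EGFP+ effect between sexes from -0.43 to 0.0735. Control cells at 7 to 14 against 1 to 4 dpf gave 0.36 with at least 5000 reads. EGFP+ cells at 21 to 28 against 7 to 14 dpf gave -0.14 with calls, -0.0127 with 1 read added, -0.10 with reads without a methylated call, -0.0718 relative to unplaced scaffolds and -0.76 to 0.73 with a replicate left out. Control cells at the same ages gave -0.0505 with 1 read added, -0.0033 percentage points without log2, -0.87 within runs, -0.97 with at least 5000 reads, -0.34 with reads without a methylated call, -0.0899 relative to unplaced scaffolds and -0.31 to 0.54 with a replicate left out. EGFP+ against control methylation at 1 to 28 dpf was -0.174 points with at least 1 call, -2.20 with at least 20, 5.10 without fully methylated reads (permutation p = 0.149), 3.92 within runs (p = 0.182) and 3.95 to 8.83 with a replicate left out. At 35 to 70 dpf it was 1.60 points with at least 1 call and 0.454 with at least 20, and females against males in control cells gave 0.590 with at least 1 call. Correlations changed as follows: mitochondrial with nuclear methylation, EGFP+, 0.30 with run means taken off (p = 0.0326), and control, 0.0875 without the 2 farthest libraries and 0.260 with at least 20 calls (p = 0.314), and the share with nuclear methylation, control, -0.0263 without the 2 farthest and -0.0628 with group means taken off. The difference between EGFP+ and control cells in the correlation of the share with nuclear methylation was 0.308 with run means in place of group means taken off (permutation p = 0.0392), an alternative added after seeing the data. The cause of these changes was not tested. With replicate letters as a block, the EGFP+ against control differences of the share were 1.79, 1.32, 1.53 and 1.54 (sign permutation p of 1e-05 to 0.0313), and that of methylation at 1 to 28 dpf was 4.37 points (p = 0.0537). Deviations of same-lettered libraries had a correlation of 0.205 over 57 pairs and those of other letters -0.102 over 120 pairs, and nothing in the labels pairs them. All p-values here are from exact or 100000-draw permutation tests, apart from that of the difference between correlations, which used 20000 draws. With a median of 6 mitochondrial reads per library, single positions cannot be compared, and in the shallowest library 3 reads already make a share of 0.115%.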
